A study of Mus musculus with 7 samples.

Results

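Mitochondrial ribosomal protein genes were examined for DNase I hypersensitivity at their promoters in immortalized mouse podocytes, the epithelial cells that wrap the capillaries of the kidney filter. Protein-coding genes of the mouse annotation (GENCODE vM21, mm10) whose symbol is Mrpl or Mrps followed by a number were taken, which gave 78 of 21866 genes, 49 named for the large subunit of the ribosome and 29 for the small subunit. A promoter was 500 nt on either side of a transcription start site (TSS), and the 78 genes had 162 of the 54374 TSSs. All 78 had at least 1 promoter peak in each of the 3 peak lists, as did 21835 of all genes, so no member was lost to a filter.

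DNase-Seq cuts open chromatin with DNase I and sequences the released ends, so that promoters in use usually give a peak of fragments. Podocytes were kept for 36 h after growth arrest in normal glucose (NG, 5 mM), in high glucose (HG, 25 mM) with 50 nM of a nontargeting mimic (HG+NT), or in HG with 50 nM of a miR-93 mimic (HG+miR-93), with 2 samples per condition and 1 genomic DNA input. NG cells were not described as transfected, so glucose and transfection cannot be told apart between NG and HG+NT. The cells were a conditionally immortalized line that carries a thermosensitive T antigen. For DNase-Seq the authors used differentiated cells, and differentiation was induced without the interferon-γ that raises expression of this antigen. The samples of a condition were joined in a single peak list, so no comparison below has a spread between replicates or a test.

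The mitochondrial ribosome translates the few messages encoded by mitochondrial DNA, which are core subunits of the respiratory chain and of ATP synthase. Its RNAs are mitochondrial, but all of its proteins are encoded in the nucleus and imported, so that building it depends on many nuclear promoters working at similar levels. The promoters of such genes are known for binding sites of NRF1, of the ETS factor GABP and of YY1, which link the nuclear genome to mitochondrial output. Some symbols do not match the place of the protein: Mrps18a and Mrps30 proteins are found in the large subunit, and Mrps36 is now placed in the 2-oxoglutarate dehydrogenase complex.

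RefSeq promoters on GRCm38.p6, the assembly behind mm10, were available for 69 of the 78 genes and ran from 250 bases before to 50 bases from the TSS. There was no entry for Mrpl13, Mrpl15, Mrpl19, Mrpl38, Mrpl4, Mrpl54, Mrps28, Mrps34 and Mrps35. The 6 below are shown because the results turn on them. *Mrpl12* had the highest promoter fold of the family in NG, *Mrps16* was among the strongest peaks of every list, *Mrpl45* fell from NG to HG+miR-93 and holds 3 NRF1 motifs, *Mrps18a* holds an ETS and a YY1 motif, *Mrps18b* had the most fragments in NG and HG+NT, and the *Mrps11* window spans the start it shares with *Mrpl46*. Letters are 5′ to 3′ on the strand of the gene, and capitals mark matches to NRF1 (GCGC, any 2 bases, GCGC), ETS (CCGGAAG) or YY1 (AAGATGGCG) on either strand. The windows are chr11:120484387-120484686 (+ strand), chr14:20393441-20393740 (- strand), chr11:97315466-97315765 (+), chr17:46110754-46111053 (+), chr17:35916391-35916690 (-) and chr7:78782881-78783180 (+).
Mrpl12: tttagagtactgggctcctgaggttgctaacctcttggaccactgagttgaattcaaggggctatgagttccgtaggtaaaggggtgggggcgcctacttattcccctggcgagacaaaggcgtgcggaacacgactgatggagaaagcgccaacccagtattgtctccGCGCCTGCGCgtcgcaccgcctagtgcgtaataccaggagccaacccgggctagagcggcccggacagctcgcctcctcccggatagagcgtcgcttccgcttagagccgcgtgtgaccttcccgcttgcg
Mrps16: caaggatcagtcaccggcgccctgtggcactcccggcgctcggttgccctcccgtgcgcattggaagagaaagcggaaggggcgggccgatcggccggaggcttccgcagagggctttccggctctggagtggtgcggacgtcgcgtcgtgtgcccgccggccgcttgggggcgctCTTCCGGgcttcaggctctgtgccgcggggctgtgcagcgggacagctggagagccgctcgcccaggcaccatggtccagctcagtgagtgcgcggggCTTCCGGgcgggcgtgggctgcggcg
Mrpl45: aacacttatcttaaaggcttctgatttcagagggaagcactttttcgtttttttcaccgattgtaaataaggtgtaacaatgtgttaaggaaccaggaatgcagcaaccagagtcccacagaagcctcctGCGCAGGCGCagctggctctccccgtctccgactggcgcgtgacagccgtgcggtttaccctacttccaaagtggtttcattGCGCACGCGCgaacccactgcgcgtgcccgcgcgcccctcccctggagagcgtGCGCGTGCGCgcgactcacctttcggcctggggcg
Mrps18a: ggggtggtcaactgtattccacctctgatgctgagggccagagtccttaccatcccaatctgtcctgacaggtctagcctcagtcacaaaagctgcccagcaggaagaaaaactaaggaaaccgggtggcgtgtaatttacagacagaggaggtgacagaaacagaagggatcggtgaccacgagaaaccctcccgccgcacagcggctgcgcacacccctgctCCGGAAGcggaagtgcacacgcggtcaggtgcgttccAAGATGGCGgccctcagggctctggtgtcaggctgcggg
Mrps18b: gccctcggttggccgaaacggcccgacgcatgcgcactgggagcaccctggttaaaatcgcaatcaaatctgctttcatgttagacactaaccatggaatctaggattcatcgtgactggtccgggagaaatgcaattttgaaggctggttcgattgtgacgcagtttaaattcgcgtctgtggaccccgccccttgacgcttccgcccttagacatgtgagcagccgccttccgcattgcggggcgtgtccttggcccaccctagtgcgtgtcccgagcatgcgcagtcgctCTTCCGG
Mrps11: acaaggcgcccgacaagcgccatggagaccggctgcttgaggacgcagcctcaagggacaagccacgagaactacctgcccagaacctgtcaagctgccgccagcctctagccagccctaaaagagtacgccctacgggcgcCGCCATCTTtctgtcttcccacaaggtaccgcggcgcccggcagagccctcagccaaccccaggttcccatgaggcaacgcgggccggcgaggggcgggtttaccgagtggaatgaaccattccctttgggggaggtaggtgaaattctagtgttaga

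NRF1, ETS and YY1 motifs were each found in a larger share of the 69 promoters than of all 17492 protein-coding RefSeq promoters of the same length. The ETS motif was in 25 of the 69 promoters (36.2%, 95% Wilson interval 25.9 to 48.0) and in 11.9% of all promoters. The NRF1 motif was in 14 (20.3%, 12.5 to 31.2) against 8.80%, and the YY1 motif was in 8 (11.6%, 5.99 to 21.3) against 1.94%. None of these 3 intervals includes the share of all promoters. NRF1 or ETS was present in 35 promoters (50.7%) against 19.1% of all, while 4 promoters held both.

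Other promoter elements were searched in the same window. The SP/KLF motif GGGCGG was in 49.3% (37.8 to 60.8) against 46.3%, and the NF-Y motif CCAAT in 39.1% (28.5 to 50.9) against 39.0%. The TATA box TATAAA was in 4 promoters (5.80%, 2.28 to 14) against 13.3%, an interval that includes the share of all promoters. Over 500 bases on either side of the TSS the family lay above all promoters for SP/KLF (75.4% against 61.8%) and below them for NF-Y (59.4% against 70.7%) and the TATA box (17.4% against 31.6%). The median ratio of observed to expected CpG was 0.818 against 0.577, at a median GC content of 58.3% against 56.3%. Of the matches in the family, 27 of 30 ETS, 15 of 17 NRF1 and 7 of 8 YY1 matches were centred within 100 nt of the TSS, and only 2 ETS matches overlapped another of the searched motifs.

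**Figure D1:**
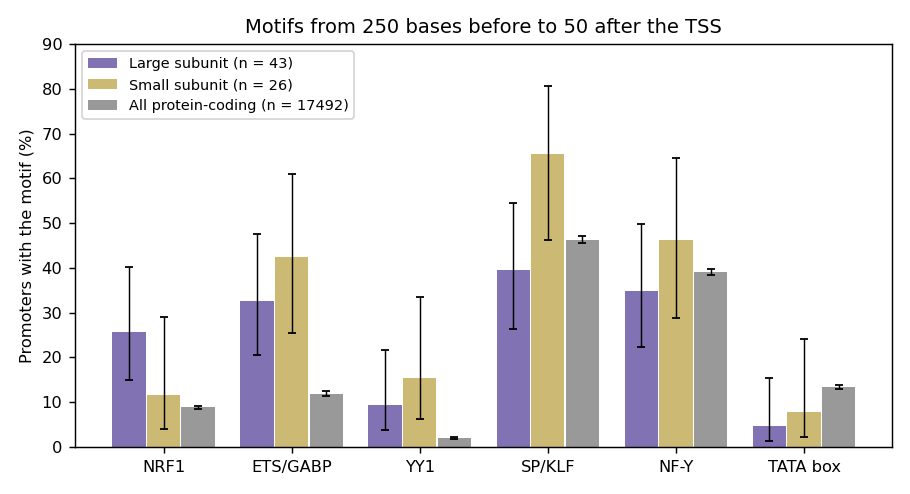
Share of promoters (%, bars, with 95% Wilson intervals) that hold each motif from 250 bases before to 50 from the TSS, for the large subunit (43 promoters), the small subunit (26) and all protein-coding genes (17492). ETS was in 32.6% of the large and 42.3% of the small subunit promoters against 11.9% of all, and NRF1 in 25.6% and 11.5% against 8.80%.

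The motifs were spread over both subunits. NRF1 was in 11 of 43 large subunit promoters (25.6%, 14.9 to 40.2) and in 3 of 26 small subunit promoters (11.5%, 4.0 to 29), intervals that overlap. ETS was in 14 (32.6%, 20.5 to 47.5) and 11 (42.3%, 25.5 to 61.0). Among genes of related function, ETS was in 37.1% of the promoters of cytosolic ribosomal proteins and 22.9% of those of oxidative phosphorylation, and NRF1 in 9.68% and 24.3%. YY1 was in 6.45% and 8.57%. In 55 other mitochondrial translation genes ETS was in 38.2%, NRF1 in 16.4% and YY1 in 10.9%. The median CpG ratios of these 3 groups were 0.855, 0.801 and 0.774, so the traits are not particular to the family.

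Many members share their promoter with another gene. A protein-coding gene on the opposite strand started head to head within 1000 nt at 26 of the 78 genes (33.3%, 95% Wilson interval 23.9 to 44.4), against 9.87% of all protein-coding genes. *Mrpl46* and *Mrps11* were each other's partner, with nearest TSSs 30 nt apart, and had the same peak in all 3 lists, so their values are a single measurement. Both genes stay in the counts of members below, so this peak is counted once in each subunit. Examples of other partners, picked after the list was seen, are Twnk, the mitochondrial DNA helicase (*Mrpl43*, 116 nt), Ndufs6, a subunit of complex I (*Mrpl36*, 51 nt), Sars2, the mitochondrial seryl-tRNA synthetase (*Mrps12*, 182 nt), and Fau, which encodes a cytosolic ribosomal protein (*Mrpl49*, 59 nt). A peak at such a promoter cannot be assigned to either gene.

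Each peak carries a fold, which is its fragment pileup at the summit plus 1 over the mean expected from the input plus 1. The fragments under a summit and the local mean of the input were worked back from the fold and p-value of the peak. All 3 lists share 1 input, so the input mean of a gene differs between lists with the place of its summit, not with the condition. Pileups are scaled to the depth of the input and carry exact Poisson intervals at the 95% level, for counting error alone. Where 3 values stand in a row they are those of NG, then HG+NT, then HG+miR-93. The lists were of unequal depth, at 2.24, 3.85 and 5.15 times the input, and held 1036304, 846027 and 900109 peaks, most of them weak, with a median of 6, 10 and 12 fragments at the summit. Hence the fold of the highest promoter peak of a gene was ranked within its own list, as a percentile over the 21835 genes, whose middle is 50. Depth rose in the order in which several values below fell, and its part in them was not tested.

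At the podocyte markers, Synpo, which encodes an actin-associated protein, was at percentiles 91.1, 96.3 and 71.4, Podxl, which encodes podocalyxin, at 90.4, 13.6 and 75.9, and Nphs1, which encodes nephrin, at 9.99, 55 and 64.1, so the nephrin promoter had no strong peak in NG. The 3 endothelial markers had median percentiles of 46.4, 68.3 and 79.8, ranging from 34.9 to 62.7 in NG and from 47.7 to 87.8 in HG+miR-93, and the 2 mesangial markers 36.7, 82.5 and 82.0. Their part in the results on the ribosomal protein genes was not tested.

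The members had many fragments at their promoters in all 3 lists, but also many input fragments. The median pileup was 8.49, 6.88 and 5.83, against 4.91, 4.67 and 4.66 over all genes. Ranked by the highest promoter pileup alone, the median member stood at the percentiles 74.8, 73.3 and 66.1, and 74, 62 and 57 of the 78 members lay above 50. The local mean of the input under the same peaks had a median of 3.4, 3.2 and 3.6 fragments against 2.0 in each list for all genes, and was at least 3 at 70.5%, 64.1% and 67.9% of members against 38.4%, 37.6% and 36.3% of genes. In the fold the input counts against the pileup, so the members stood less high by fold than by pileup.

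**Figure D2:**
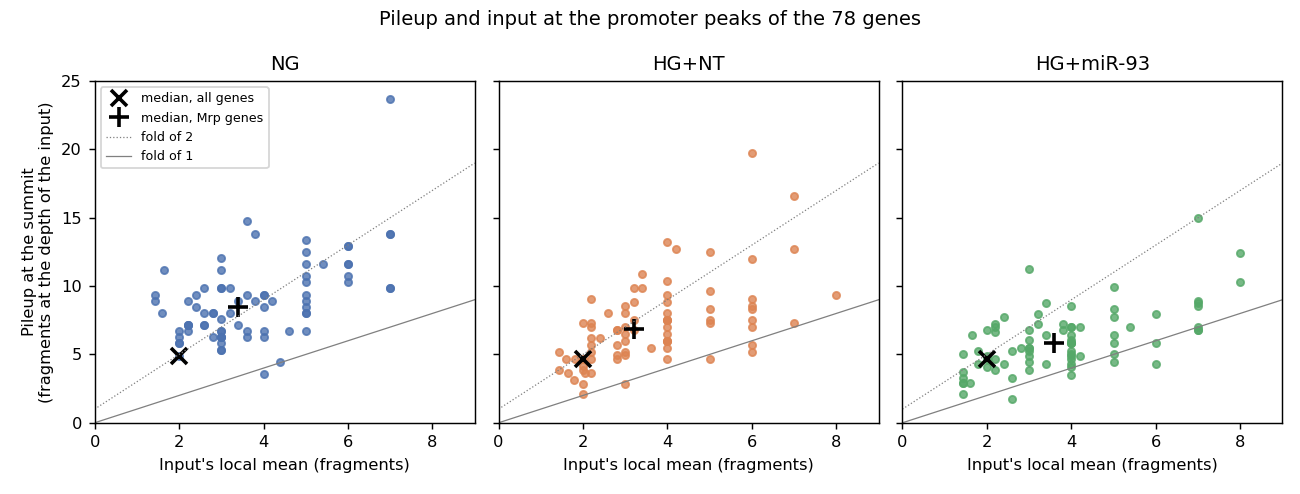
Pileup at the summit (fragments at the depth of the input) against the local mean of the input (fragments) for the promoter peak of each of the 78 genes, 1 panel per list, with lines for folds of 1 and 2 and crosses for medians. The median member (+) lay at 8.49 and 3.4 in NG and at 5.83 and 3.6 in HG+miR-93, up and to the right of the median of all genes (x).

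By fold, the members stood above the middle of all genes in NG, near it with HG+NT and below it with the miR-93 mimic. The median percentile was 61.7 (95% order-statistic interval 53.7 to 75.1, for the spread between genes only), 50.8 (36.4 to 64.7) and 38.3 (25.1 to 44.4). The large subunit went from 64.5 (54.1 to 75.1) to 48.4 (35.5 to 57.4) and 36.1 (20.1 to 43.4), and the small subunit from 57.3 (40.6 to 79.8) to 63.6 (32.8 to 80.7) and 42.8 (14.1 to 59.2). The 2 subunits overlapped widely in every list. The place above the middle in NG depended on how peaks were read: with the folds of all promoter peaks summed the large subunit median was 45.3, and with only summits within 500 nt of a TSS the small subunit median was 44.6.

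**Figure D3:**
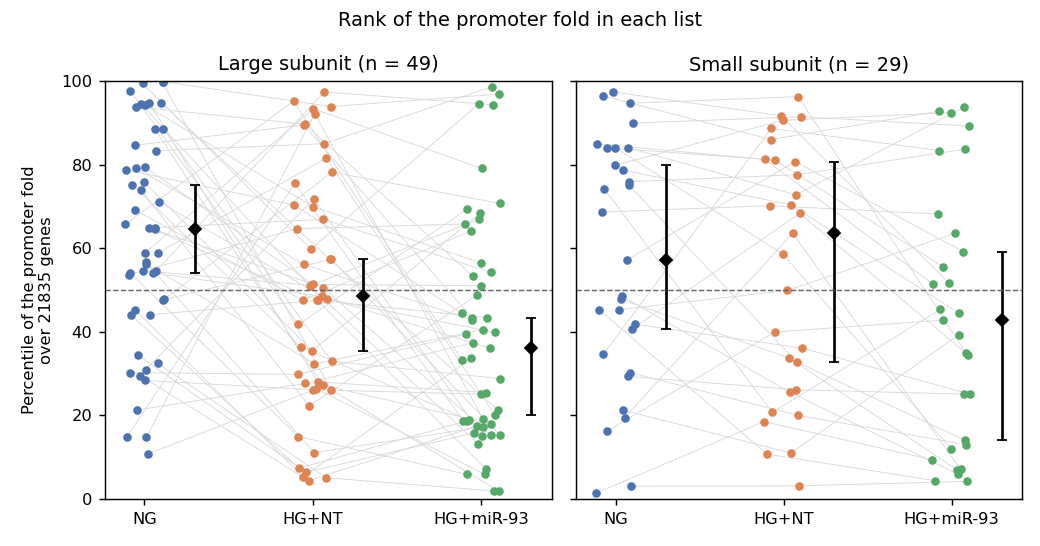
Percentile of the promoter fold over 21835 genes for each large (49) and small (29) subunit gene in the 3 lists, with grey lines joining a gene, diamonds for medians and bars for their 95% order-statistic intervals. The large subunit median went from 64.5 to 48.4 and 36.1, while the small subunit was at 57.3, 63.6 and 42.8, and both subunits spanned nearly the whole range in every list.

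The summits lay closer to the start sites than those of genes at large, as did those of related gene groups. The summit of the chosen peak was within 500 nt of a TSS of its gene at 97.4% (91.1 to 99.3), 87.2% (78 to 92.9) and 88.5% (79.5 to 93.8) of members, against 60.9%, 57.7% and 56.9% of genes. The shares were 91.3%, 81.3% and 78.8% at the 80 cytosolic ribosomal protein genes and 85.5%, 90.4% and 86.8% at the 83 oxidative phosphorylation genes. The median distance was 104, 128 and 126 nt against 312, 331 and 349 nt. The summits of HG+NT and NG lay within 200 nt of each other at 61.5% of members against 32.2% of genes, and those of HG+miR-93 and NG at 62.8% against 30.7%. In NG 29 summits were upstream of the gene, 32 in an exon and 17 in an intron, and the counts were 27, 29 and 22 in HG+miR-93.

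**Figure D4:**
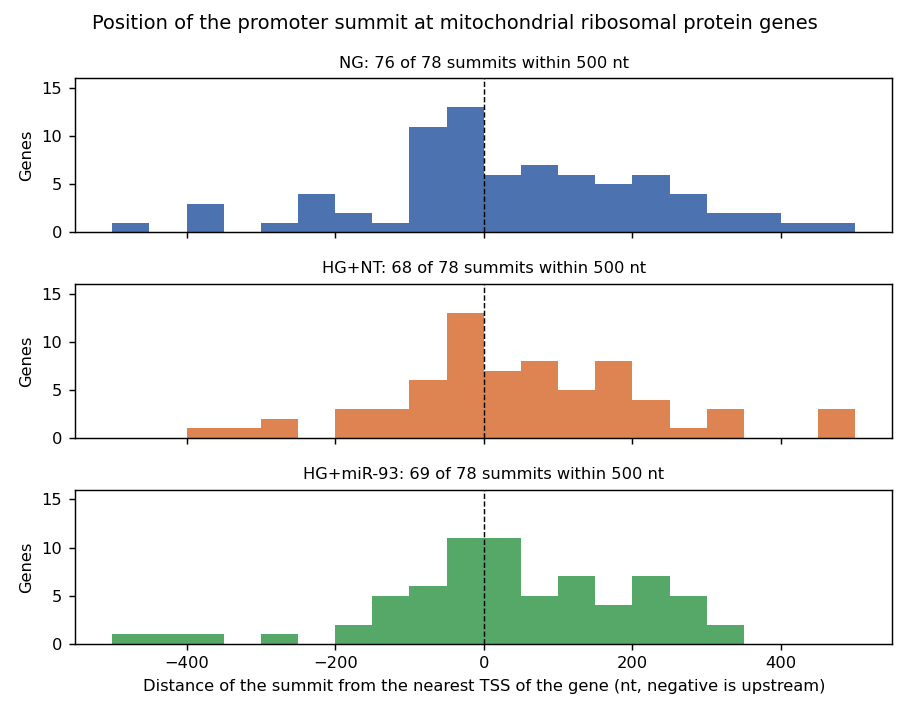
Distance of the promoter summit from the nearest TSS of its gene (nt, negative is upstream) in bins of 50 nt for each list, drawn for summits within 500 nt. These were 76, 68 and 69 of the 78 genes, and they cluster around the TSS.

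Some summits stood away from a TSS. *Mrps34*, a mitochondria-specific protein of the small subunit, had its summit 1072, 1492 and 2046 nt downstream of the TSS. *Mrpl36* had it 507 nt downstream, 2323 nt downstream and 1744 nt upstream, although the peak with the most fragments was 14, 74 and 90 nt upstream in the 3 lists. At *Mrpl46* and *Mrps11* the chosen peak of HG+miR-93 was 4415 nt from the *Mrpl46* TSS, while the peak with the most fragments lay 1 nt from it.

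No member promoter was a strong peak by the callers' own error estimate. The highest −log10 q of a member was 1.45 (*Mrpl12*, NG list) and 0.488 (*Mrps18b*, HG+NT list), and it was 0 at every member of the HG+miR-93 list. The lists held 73, 94 and 1 peaks with a −log10 q of at least 2, and none of them was at a member. By −log10 p, 55.1% (44.1 to 65.7), 28.2% (19.4 to 39.0) and 14.1% (8.06 to 23.5) of members overlapped one of the 20000 strongest peaks of a list, against 33.3%, 26.0% and 21.5% of genes. The share of members was above that of all genes in NG, and the interval of the other lists included it. Related groups also lay above all genes in NG, at 50% of cytosolic ribosomal protein genes and 48.2% of oxidative phosphorylation genes. Their shares in HG+miR-93 were 12.5% and 24.1%.

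The 6 members that overlapped one of the 20000 strongest peaks in all 3 lists were *Mrpl12*, *Mrpl34*, *Mrpl43*, *Mrps16*, *Mrps2* and *Mrps9* (7.69%, against 8.63% of all genes).

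The large subunit genes with the highest mean percentile were *Mrpl12*, *Mrpl43* and *Mrpl23*. *Mrpl12* (chr11:120484613-120489065) encodes the stalk protein that recruits translation factors and also binds the mitochondrial RNA polymerase. Its pileup was 11.2 (7.23 to 16.5), 7.27 (4.83 to 10.5) and 6.41 (4.41 to 9.01) over an input mean of 1.64, 2 and 1.64, at percentiles 99.9, 93.9 and 96.9. The 3 intervals overlapped, and the summits lay 2, 121 and 27 nt upstream of the TSS, on the promoter printed above. *Mrpl43*, a mitochondria-specific protein that shares its promoter with Twnk, was at 8.04 (4.76 to 12.7), 8.83 (6.11 to 12.3) and 11.3 (8.56 to 14.6), and was highest in HG+miR-93, at percentile 98.6. *Mrpl23*, at the exit of the polypeptide tunnel, stood at percentiles 99.4, 59.8 and 94.6 with pileups of 8.93 (5.46 to 13.8), 4.67 (2.77 to 7.39) and 6.80 (4.74 to 9.46).

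*Mrpl34*, a small protein with a bacterial homologue, had more fragments than any other member in HG+miR-93. Its pileup was 13.8 (9.41 to 19.7), 16.6 (12.8 to 21.2) and 15 (11.8 to 18.7), with the summit 277, 279 and 283 nt upstream of the TSS. The input mean was 7 in all 3 lists, so its percentiles were 47.7, 78.2 and 70.7. The summit hardly moved and the 3 intervals overlapped.

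At the other end of the large subunit were *Mrpl15*, *Mrpl52* and *Mrpl27*. *Mrpl15* was at percentiles 32.5, 5.07 and 1.90, with a pileup of 8.93 (5.46 to 13.8), 5.71 (3.58 to 8.65) and 1.75 (0.80 to 3.32). The last was read at a peak 519 nt upstream of the TSS, and the peak with the most fragments, 114 nt downstream, had 4.08. *Mrpl52* was at 10.8, 26.3 and 5.89 and *Mrpl27* at 29.5, 4.36 and 17.5, each over an input mean of at least 3 in all 3 lists.

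In the small subunit, *Mrps16*, *Mrps9* and *Mrps2*, which all have bacterial homologues, had the highest mean percentiles. *Mrps16* (chr14:20389304-20393634) had a pileup of 12.1 (7.95 to 17.5), 8.57 (5.90 to 12.0) and 7.0 (4.90 to 9.69), at percentiles 96.4, 86.0 and 92.8. *Mrps9* was at 8.49 (5.11 to 13.3), 7.27 (4.83 to 10.5) and 6.61 (4.58 to 9.23), at 89.9, 91.4 and 89.2. *Mrps2* was at 6.25 (3.42 to 10.5), 5.19 (3.17 to 8.02) and 5.05 (3.30 to 7.40), at 79.8, 90.6 and 92.4. These 3 genes were picked by their mean percentile over the same lists, so their high place is no separate result. The intervals of each gene overlapped throughout.

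*Mrps18c*, *Mrps22* and *Mrps17* were lowest in the small subunit. *Mrps22*, a mitochondria-specific protein, had 8, 11 and 22 fragments at its summit, a pileup of 3.57 (1.54 to 7.04), 2.86 (1.43 to 5.11) and 4.28 (2.68 to 6.47), and percentiles of 1.36, 18.5 and 9.40. These values were read 293 nt downstream, 2481 nt upstream and 316 nt downstream of the TSS. Its peaks with the most fragments lay elsewhere in NG (77 nt upstream) and HG+NT (296 nt downstream). *Mrps17*, a protein with a bacterial homologue, fell from 45.3 to 10.7 and 4.38 while its pileup was 6.25 (3.42 to 10.5), 4.67 (2.77 to 7.39) and 4.47 (2.83 to 6.71) and the input mean 3, 4 and 5.

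The 3 genes related to bacterial S18 differed widely. *Mrps18b* (chr17:35910379-35916389), which faces Ppp1r10 at 177 nt, had the most fragments of the family in NG and HG+NT, with a pileup of 23.7 (17.7 to 31.0), 19.7 (15.5 to 24.7) and 12.4 (9.58 to 15.9). Its NG and HG+miR-93 intervals did not overlap, and its percentile went from 94.7 and 96.3 to 34.9. *Mrps18a* had 5.36 (2.77 to 9.36), 5.45 (3.38 to 8.34) and 4.66 (2.99 to 6.94), and *Mrps18c* 4.47 (2.14 to 8.21), 5.19 (3.17 to 8.02) and 3.50 (2.07 to 5.53), without a difference between lists beyond counting error. In NG and HG+NT the intervals of *Mrps18b* lay above those of both relatives, and the same held in HG+miR-93. The chosen *Mrps18c* peaks of NG and HG+miR-93, 207 nt upstream and 236 nt downstream of the TSS, were not those with the most fragments. Those lay 85 nt downstream and 1 nt upstream, so these comparisons hold for the chosen peaks. All 3 promoters hold an ETS motif, so that motif did not separate them.

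**Figure D5:**
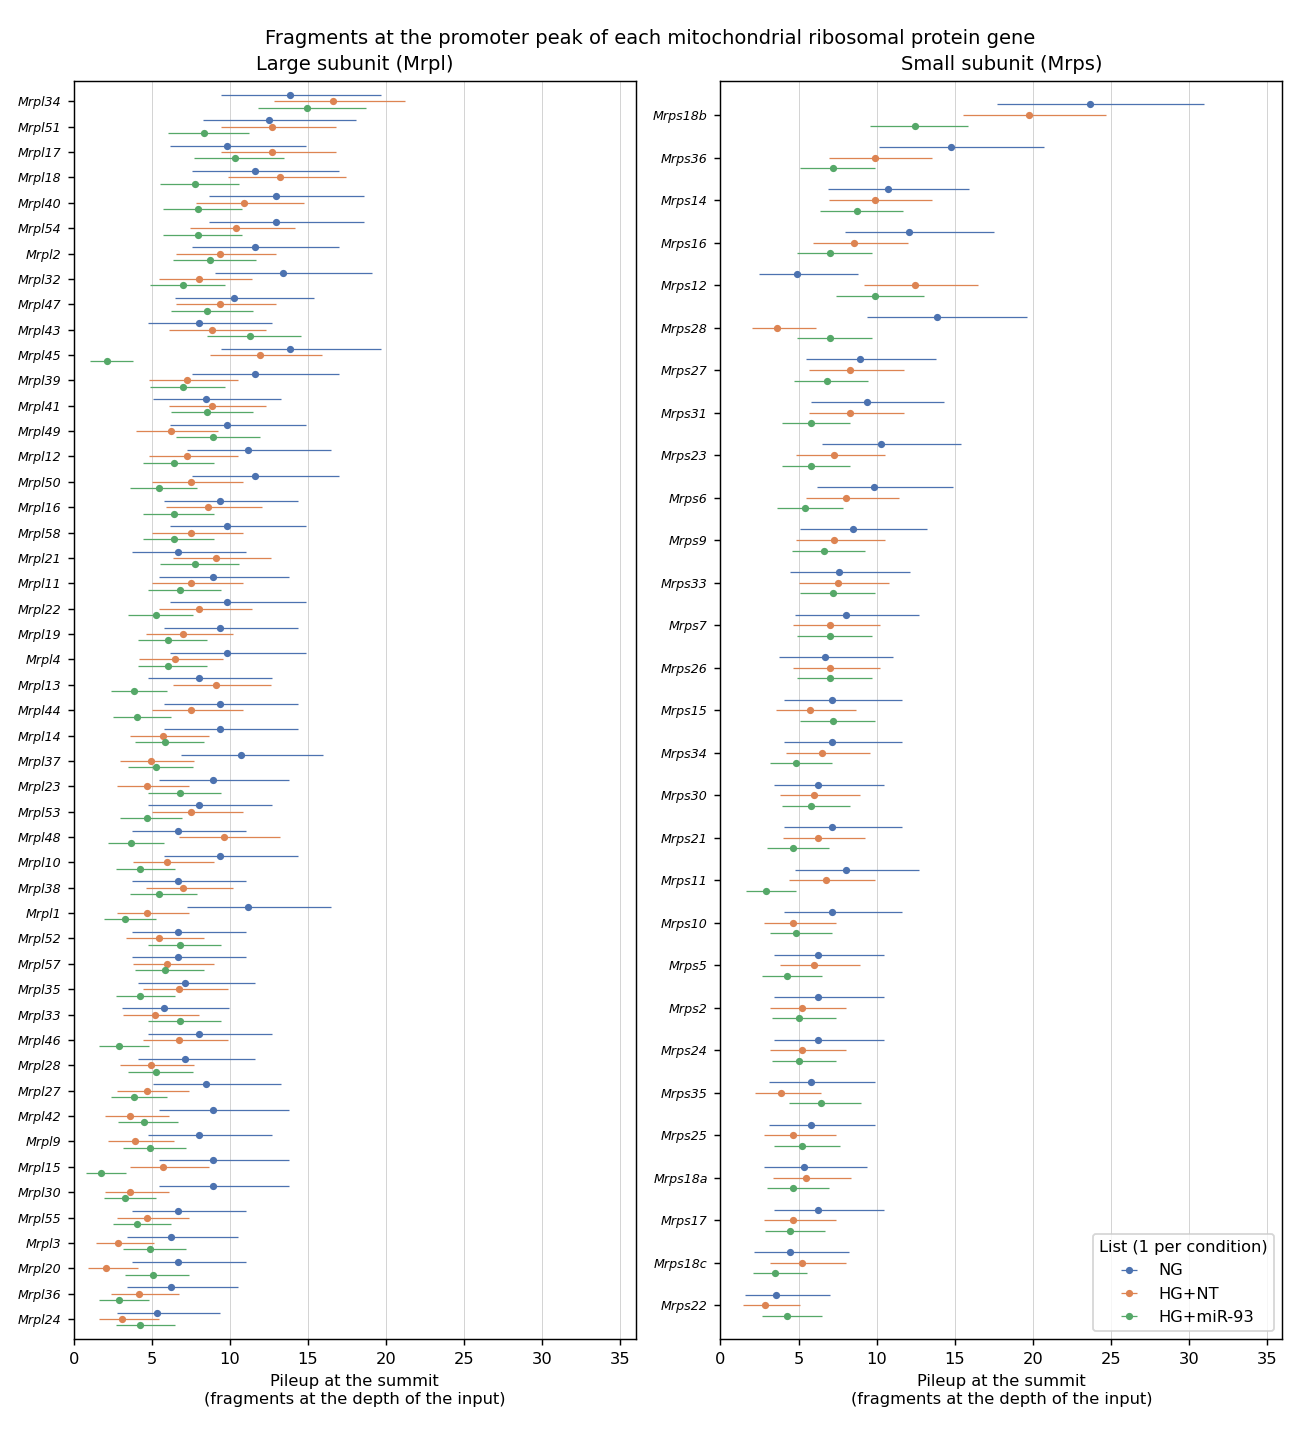
Pileup at the summit of the chosen promoter peak (fragments at the depth of the input) of each gene in the 3 lists, with 95% exact Poisson intervals for counting error, ordered within a subunit by the mean of the 3 pileups. *Mrps18b* stands apart in NG and HG+NT at 23.7 and 19.7, and the intervals of the 3 lists overlap at most genes.

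From NG to HG+NT, where glucose and transfection cannot be told apart, falls outnumbered rises in the large subunit. In the small subunit the shares of falls and of rises were both below those of all genes. A fall of at least 25 percentile points was seen at 23 of 78 members against 20.3% of all genes, and a rise at 10 against 20% of all genes. Of the falls, 19 were among the 49 large subunit genes (38.8%) and 4 among the 29 small subunit genes (13.8%). Of the rises, 7 were in the large subunit (14.3%) and 3 in the small subunit (10.3%). The median percentile of the small subunit was 57.3 in NG and 63.6 in HG+NT. The difference between the subunits was not tested. The median change was -17.4 points in the large subunit, -3.17 in the small subunit and 0.09 over all genes. Pileup intervals did not overlap at *Mrps12* and *Mrps28* (2 of 78, against 2.9% of all genes), which is near the background.

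The largest falls were at *Mrpl10*, *Mrpl42* and *Mrpl58*. *Mrpl10*, which anchors the *Mrpl12* stalk, had 9.38 (5.81 to 14.3) fragments in NG over an input mean of 1.43, the genome-wide background, and 5.97 (3.79 to 8.96) in HG+NT over 4, and fell from percentile 99.7 to 26.1. *Mrpl42*, a mitochondria-specific protein, had 8.93 (5.46 to 13.8) and 3.64 (1.99 to 6.10) over the same input mean of 2.2, at summits 195 and 197 nt downstream of the TSS, and fell from 94.8 to 28.0. *Mrpl58*, a peptidyl-tRNA hydrolase built into the ribosome, fell from 88.6 to 27.2 while its pileup went from 9.83 (6.16 to 14.9) to 7.53 (5.04 to 10.8) and its input mean from 3 to 5. The pileup intervals of all 3 genes overlapped between the lists.

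The largest rises, at *Mrpl17*, *Mrpl49* and *Mrps14*, were read at summits where the input mean was lower. *Mrpl17*, a protein with a bacterial homologue, rose from percentile 14.7 to 92.1 and returned to 19.2 in HG+miR-93, at pileups of 9.83 (6.16 to 14.9), 12.7 (9.41 to 16.8) and 10.3 (7.72 to 13.5) and input means of 7, 4.2 and 8. *Mrpl49*, which faces Fau, was at 14.7, 75.5 and 18.6 with input means of 7, 2.4 and 7. Its summits lay 13 nt upstream, 87 nt downstream and 1 nt upstream of the TSS. *Mrps14*, a protein with a bacterial homologue, rose from 34.7 to 88.7 as its input mean went from 6 to 3.4 and its pileup from 10.7 (6.87 to 15.9) to 9.87 (6.98 to 13.5). Over all changes of this comparison, the pileup was lower and the input mean higher or equal at 22 of the 23 falls, and the input mean was lower at 9 of the 10 rises. Both values enter the fold by which the changes were called, so these counts only describe the calls.

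At *Mrps12* and *Mrps28* the value depended on which promoter peak was read. *Mrps12*, a protein of the decoding centre, had a pileup of 4.91 (2.45 to 8.79) in NG and 12.5 (9.19 to 16.5) in HG+NT, but its NG peak with the most fragments had 12.5 as well, 266 nt upstream of the TSS. *Mrps28* had 13.8 (9.41 to 19.7) in NG and 3.64 (1.99 to 6.10) in HG+NT at a summit 1398 nt upstream, and its HG+NT peak with the most fragments, 58 nt downstream of the TSS, had 10.1. Read at the peak with the most fragments, no member differed between NG and HG+NT beyond its intervals, against 1.22% of all genes.

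From HG+NT to HG+miR-93, the comparison of the miR-93 mimic with the nontargeting mimic, more members fell than rose. A fall of at least 25 points was seen at 22 of 78 members against 16% of all genes, and a rise at 6 against 16.1% of all genes. The falls were 13 of 49 in the large and 9 of 29 in the small subunit, with median changes of -7.47 and -6.96 points. Pileup intervals did not overlap at *Mrpl13*, *Mrpl15*, *Mrpl45* and *Mrpl48* (4 of 78, against 2.33% of all genes), all lower in HG+miR-93. Read at the peak with the most fragments they overlapped at all 78 members, while 0.426% of all genes had separate intervals. At the chosen peak, most such genes of the whole set were also lower in HG+miR-93, 415 against 93 higher.

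The largest falls were at *Mrpl17*, described above, *Mrpl18* and *Mrpl54*. *Mrpl18*, a protein with a bacterial homologue that faces Tcp1, had a pileup of 11.6 (7.59 to 17.0), 13.2 (9.86 to 17.4) and 7.77 (5.55 to 10.6), at percentiles 65.7, 95.2 and 33.2. *Mrpl54*, a mitochondria-specific protein, was at 13.0 (8.67 to 18.6), 10.4 (7.42 to 14.1) and 7.97 (5.72 to 10.8), at 58.9, 81.6 and 20.1. The largest rises were at *Mrpl23*, described above, at *Mrpl33* (35.5 to 68.4) and at *Mrpl3* (5.30 to 33.7). *Mrpl3*, a core protein of the peptidyl transferase region, had an input mean of 3 in every list and pileups of 6.25 (3.42 to 10.5), 2.86 (1.43 to 5.11) and 4.86 (3.14 to 7.17), lowest in HG+NT. All these intervals overlapped.

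Between NG and HG+miR-93 the fall was widest. A fall of at least 25 points was seen at 36 of 78 members (46.2%) against 21.1% of all genes, and a rise at 3 (3.85%) against 21.2%. The falls were 25 of 49 in the large subunit (51.0%) and 11 of 29 in the small subunit (37.9%), with median changes of -25.2 and -6.06 points. The pileup was lower at all 36 falls, while the input mean was higher at 17, lower at 11 and equal at 8. The pileup is part of the fold by which the falls were called, and this count was not made over all genes. A lower pileup at the falls is therefore no separate result. The members began high in NG, which leaves more room to fall than to rise, and the background was not matched for the level in NG. Of all members, 31 fell at both steps against 18.8% of all genes, 8 rose at both against 19.2%, 18 were lowest in HG+NT against 31% and 21 highest there against 31%.

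The same direction was seen, with fewer genes, when members were ranked by their highest pileup alone, which leaves the input out. A fall of at least 25 points was then seen at 12 members against 6.79% of all genes, and a rise at 3 against 7%. The 12 were *Mrpl1*, *Mrpl10*, *Mrpl15*, *Mrpl22*, *Mrpl27*, *Mrpl30*, *Mrpl35*, *Mrpl37*, *Mrpl42*, *Mrpl44*, *Mrpl50* and *Mrpl55*, all of the large subunit. Between NG and HG+NT the counts by pileup were 8 falls against 6.18% of all genes and 1 rise, *Mrpl21*, against 6.97%. With the miR-93 mimic against the nontargeting mimic they were 7 falls against 2.89% and 4 rises against 2.97%. The 8 falls to HG+NT were also all of the large subunit. That subunit has more genes (49 against 29). By pileup its median percentile in NG was 77.9, against 61.6 in the small subunit, which leaves it more room to fall. The levels in NG were not matched, and the difference between the subunits was not tested.

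Genes whose chosen summit lay within 500 nt of a TSS in all 3 lists gave a like-for-like comparison for position. There were 8030 such genes, with median percentiles of 67.9, 59.8 and 54.3, and 61 of the 78 members among them, at 58.9, 51.1 and 40.5. Falls from NG to HG+miR-93 were seen at 44.3% of these members against 27.1% of these genes, and rises at 4.92% against 14.2%. Median pileups were 8.93, 7.27 and 6.41 in the members against 8.49, 7.01 and 6.22, and input means 3.6, 4 and 4 against 3 in each list. Beside genes with a summit at the start site, the members had median pileups close to theirs and a higher median input mean.

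Pileup intervals of NG and HG+miR-93 did not overlap at 6 of 78 members, against 3.8% of all genes, and all 6 were lower in HG+miR-93. These were *Mrpl1*, *Mrpl15*, *Mrpl30*, *Mrpl45*, *Mrps18b* and *Mrps36*. Most such genes of the whole set went the same way, with 758 lower in HG+miR-93 and 72 higher. Read at the peak with the most fragments, *Mrpl1*, *Mrps18b* and *Mrps36* still did not overlap, against 1.41% of all genes. *Mrpl1*, the protein of the L1 stalk, had a pileup of 11.2 (7.23 to 16.5), 4.67 (2.77 to 7.39) and 3.30 (1.92 to 5.29), the last at a summit 1697 nt upstream, and its HG+miR-93 peak with the most fragments, 12 nt from the TSS, had 4.86. *Mrps36*, which is not counted as a ribosomal protein today, had 14.7 (10.1 to 20.7), 9.87 (6.98 to 13.5) and 7.19 (5.06 to 9.91), at percentiles 97.4, 91.7 and 51.7.

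The largest falls by rank were at *Mrpl10*, *Mrpl14* and *Mrpl45*. *Mrpl10* reached percentile 1.84 in HG+miR-93, with a pileup of 4.28 (2.68 to 6.47) over an input mean of 6. Its summits lay 202, 121 and 65 nt downstream of the TSS, and the input mean read there was 1.43, 4 and 6. *Mrpl14*, at the face between the subunits, was at percentiles 94.4, 51.0 and 13.2 with pileups of 9.38 (5.81 to 14.3), 5.71 (3.58 to 8.65) and 5.83 (3.93 to 8.32). *Mrpl45* (chr11:97315716-97329920), a protein at the tunnel exit near the inner membrane, was at 94.8, 57.4 and 21.3 with pileups of 13.8 (9.41 to 19.7), 11.9 (8.75 to 15.9) and 2.14 (1.07 to 3.82). The last value was read 1032 nt downstream, and the peak 51 nt upstream of the TSS, between the NRF1 motifs printed above, had 7.19.

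The 3 rises were at *Mrps14* (percentile 34.7 to 83.4), *Mrpl21* (54.6 to 94.3) and *Mrps26* (16.2 to 42.8). *Mrpl21*, a protein with a bacterial homologue, had pileups of 6.70 (3.75 to 11.1), 9.09 (6.33 to 12.6) and 7.77 (5.55 to 10.6) over input means of 3, 2.2 and 2.4. Its summits stayed within 66 nt of the TSS, and its intervals overlapped.

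The 8 members on chromosomes 8, 15 and 19 had medians of the opposite sign to the others in both comparisons with NG, with no test made. They are *Mrpl34* and *Mrps31* on chromosome 8, *Mrpl13* on 15, and *Mrpl11*, *Mrpl16*, *Mrpl21*, *Mrpl43* and *Mrpl49* on 19. Their median change was 4.02 points from NG to HG+NT and 9.59 from NG to HG+miR-93, against -8.40 and -18.3 at the other 70 members. From HG+NT to HG+miR-93 both medians were below 0, at -5.25 and -7.45. No median change over all genes of these chromosomes was taken, so these values cannot tell a shift of the whole chromosomes from one of the members. With folds over the chromosome's median promoter fold, the median change of all 78 members from NG to HG+miR-93 was -14.3 points, against -17.0 without it. That value was not split by chromosome. Within the 8 there was no single direction, since *Mrpl11*, a stalk-base protein, fell from percentile 54.1 to 14.9 and 5.89.

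Pileups of members grouped by their sequence are given as a description. The 14 genes with an NRF1 motif had median pileups of 9.16, 7.14 and 5.83, the 25 with an ETS motif 8.04, 7.53 and 6.80, the 8 with a YY1 motif 7.59, 5.32 and 4.57, and the 28 with none of the 3 motifs 8.71, 6.49 and 5.64. By percentile of fold the genes with an NRF1 motif went from 77.2 to 50.8 and 23.2, and those with none of the 3 from 55.6 to 51.2 and 46.6. Genes with an ETS motif went from 57.3 to 47.5 and 39.9, and those with a YY1 motif from 55.2 to 40.4 and 30.8. Differences between these groups were not tested. The 26 head-to-head genes had median pileups of 8.93, 7.27 and 6.90 and input means of 4 in each list, against 8.26, 6.62 and 5.44 and input means of 3.1, 3.1 and 3.3 at the other 52.

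Other nuclear genes of translation and respiration are given side by side, without a claim about the ribosomal protein genes alone. From NG to HG+miR-93, falls of at least 25 points were seen at 38.8% of 80 cytosolic ribosomal protein genes, 28.9% of 83 oxidative phosphorylation genes, 32.6% of 43 mitochondrial translation factor genes and 36.4% of 22 mitochondrial tRNA synthetase genes, and rises at 6.25%, 19.3%, 18.6% and 18.2%. Median pileups in NG were 8.93, 8.49, 7.59 and 8.26, close to 8.49 in the family. Among 5 ribosomal proteins under other symbols, Dap3, a small subunit protein that binds GTP, was at percentiles 97.3, 50.7 and 98.6, and Ptcd3, a small subunit protein with RNA-binding repeats, fell from 70.2 to 29.3 and 3.47. Members with a bacterial homologue (46) and without one (32) had falls at 45.7% and 46.9% and median changes of -17.6 and -16.3 points.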

How the data were processed

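DNase-Seq reads of 2 samples per condition were trimmed, aligned to mm10 with Bowtie and filtered for duplicates, and the authors called peaks with MACS2 against 1 input, as 1 joint list per condition (base calls by CASAVA 1.8.2, per the labels; MACS2 settings and how the samples were pooled are not given in the sources used here). The deposited columns are a score, a fold (ratio of pileup to input), −log10 p and −log10 q values, and the summit. Peaks with a p of up to 0.9 were kept by the authors, so presence of a peak carries little.

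From these, fragments at the summit were recovered: a count scaled to the input and a local input mean (a multiple of 0.02, a step chosen after the values were seen, or the background of 1.43) that give the deposited fold and −log10 p within 1.5e-05, with 1 solution for 99.9986%, 99.9967% and 99.8334% of the peaks of the 3 lists. Of the peaks that overlapped a promoter of a gene by at least 1 bp, the one of highest fold was taken and ranked within its list. A change of at least 25 percentile points was called. Ties at the 20000th strongest peak were broken by a seeded draw. With no values per replicate, no test between conditions was made; intervals cover counting error, and shares have Wilson intervals. Members and lists were chosen with earlier results of these data known. Genes named were, in each subunit, the 3 highest and 3 lowest by mean percentile, the 3 largest rises and falls of each comparison, up to 5 members with separate pileup intervals, the 3 with the furthest summits, and those among the strongest peaks of all lists; *Mrps18a*, *Mrps18b* and *Mrps18c* were named together, and *Mrpl11*, further members with separate intervals, the members that fell by pileup rank, the *Mrpl46*/*Mrps11* pair, Dap3 and Ptcd3 were picked after their values were seen. Other podocyte markers looked at are not reported here. Of 44 translation factors listed, 43 matched. Promoter sequences (RefSeq) equalled the genome at all 17492 genes. Steps were tested on simulated data. Python 3.11.15, pandas 2.3.3, scipy 1.17.1 and pysam 0.24.0 were used.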

Additional observations from a re-analysis of the deposited data

How the results depend on the processing

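No paired analysis was possible because each condition has a single joint list with no values per replicate, and for the same reason no replicate could be left out. The median changes of percentile stayed below 0 under the alternatives run, but several median percentiles crossed 50. Ranked by recovered pileup, the median of the large subunit was 77.9, 75.4 and 67.5 over the 3 lists and that of the small subunit 64.8 in HG+miR-93. With the folds of all promoter peaks summed the large subunit was at 45.3 in NG, and with summits within 500 nt only the small subunit was at 44.6 there. The large subunit in HG+NT was at 56.9 by −log10 p, 50.9 over the chromosome's median and 50.2 without chromosomes 8, 15, 19, X and Y, and the small subunit in HG+miR-93 at 50.8 over the chromosome's median. The share of all genes stands in brackets after each count of the 78 members. By pileup, 1 rose (6.97%) and 8 fell (6.18%) from NG to HG+NT, 7 fell (2.89%) from HG+NT to HG+miR-93 with a median change of -1.29, and 12 fell (6.79%) from NG to HG+miR-93. With summed folds, 15 (13.3%), 14 (11%) and 18 (13.1%) fell in the 3 comparisons, and 11 rose (13.2%) in the last, with a median change of -3.37. At 40 points, 6 rose (10.6%) and 12 fell (10.7%) in the first comparison, 0 rose (7.16%) and 11 fell (7.22%) in the second, and 1 rose (10.9%) and 19 fell (11.2%) in the last. At 15 points, 10 rose (25.1%) in the second and 9 (29.7%) in the last. Rises from NG to HG+miR-93 were 5 with 1000 nt windows (21.3%), 5 with summits within 500 nt only (19.9%) and 5 with folds over the chromosome's median (20.9%). Ranked anew among genes with the summit near a TSS in all lists, an alternative chosen after seeing the data, 15 (19.7%), 13 (15.2%) and 19 (20.4%) of 61 members fell, 7 rose (19.9%) from NG to HG+miR-93, and the median change from NG to HG+NT was -0.21. Read at the peak with the most fragments, separate pileup intervals were left at 0 (1.22%), 0 (0.426%) and 3 members (1.41%), and summits lay within 500 nt at 96.2% (HG+NT) and 98.7% (HG+miR-93). Within 250 nt the shares were 78.2%, 73.1% and 74.4%. Among the 5000 strongest peaks stood 30.8% of members in NG against 18.7% of all genes, and 7.69% in HG+miR-93 against 10.4%. Among 50000 stood 52.6% in HG+NT against 44.7%, and 28.2% in HG+miR-93, below the 41.1% of all genes. At a −log10 q of at least 2 stood 0 in each list. Over 500 bases on either side of the TSS, ETS was in 50.7% of members against 19.9% of all promoters, SP/KLF in 75.4% against 61.8%, NF-Y in 59.4% against 70.7% and the TATA box in 17.4% against 31.6%. The cause of these differences was not tested. Most members have under 50 fragments at the summit, so differences below about the width of the intervals were not detectable at this depth.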
